A study of Mus musculus with 4 samples.

Results

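The broad accessible regions were 841 stretches of open chromatin of at least 2500 bp in day 4 mouse embryoid bodies. They were chosen by measured values: peaks of 4 ATAC-seq lists were merged wherever they shared at least 1 bp, and a merged region was kept when it lay on an autosome, measured 2500 bp or more and held a peak of every list. Of 80380 merged regions, 38527 held a peak of all 4 lists, and 37692 of those were autosomal and are called common regions here. The 841 broad regions made up 2.23% of the common regions and 5.50% of their summed length, or 2.46 Mb. Their merged length ran from 2500 to 5431 bp with a median of 2803 bp, against 1097 bp for all common regions. At the threshold, the shortest members held the promoters of Fgf12 and Spire2 at 2500 bp and Cidea at 2501 bp, and the nearest regions outside held those of Trib3 at 2498 bp and of Dhrs3 and Agpat3 at 2499 bp.

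ATAC-seq cuts DNA where chromatin is open, and a peak marks a run of frequent cuts. WT embryoid bodies from E14Tg2A mouse embryonic stem cells were compared with embryoid bodies from CTCF-K20R cells, in which CRISPR/Cas9 editing had replaced lysine 20 of CTCF with arginine. Each genotype had 2 libraries from day 4 of differentiation, and the number of edited clones behind the K20R libraries was not given in the sources used here. The cells had been kept on mouse feeder fibroblasts before the embryoid bodies were formed in hanging drops. CTCF is the zinc-finger protein that binds insulator sites and halts cohesin at the base of chromatin loops. Most peaks of open chromatin are short and mark a single nucleosome-free stretch. Long open stretches are known mainly from CpG-rich promoters, many of them at genes for developmental transcription factors and signalling molecules, where neighbouring nucleosomes are also displaced or mobile.

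The lists held 59783 and 66703 peaks in WT replicates 1 and 2 and 51823 and 55832 peaks in K20R replicates 1 and 2. No read counts came with them, so the depth behind a peak is unknown. Of the promoters of cell type markers, those of the pluripotency genes Pou5f1 and Sox2 and of the neural gene Pax6 were broad regions. Those of the mesoderm genes T and Eomes measured 2419 and 2393 bp and fell just short. No common region held a promoter of the mesoderm gene Mesp1 or of the fibroblast collagen gene Col1a1, while the region at the fibroblast gene Col1a2 measured 2027 bp. An open promoter is not a measure of expression. With 2 libraries against 2, the smallest p that an exact permutation test allows is 0.333, so a difference is described below by whether the genotypes' values overlap.

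The sequences below show the range of CpG content among the members, in promoter regions and in others. Each is the 200 bp around the strongest summit of a broad region, on the plus strand of mm10, with CpG dinucleotides in capitals. The window of the region at Mn1, a transcriptional coregulator gene, held 23 CpG dinucleotides. That at Nfib, a nuclear factor I transcription factor gene, held 31, and that at the homeobox gene Nkx1-1 10. Those at Prdm12 and Lrp5, described further down, held 6 and 2. A sequence labelled promoter comes from a region that holds the gene's TSS. Its window was centred on the summit, not on the TSS. The nearest protein-coding TSS was 275 bp from the summit at Mn1, 614 bp at Nfib and 1291 bp at Nkx1-1. At Prdm12 and Lrp5 it was 840 and 1466 bp away, so none of these windows held such a TSS. The window past the end of Tra2b, which encodes a splicing factor, held 1, that past Pnrc1, a nuclear receptor coregulator gene, 2, that inside Tgfbr3, which encodes a TGF-beta coreceptor, 0, and that at the non-coding gene Gm27528 3. Over all members, the window held a median of 15 CpG dinucleotides in the 639 regions with a TSS (quartiles 10 and 21) and 5 in the 202 without (quartiles 2 and 10), and at most 3 in 6.26% and 40.6% of them, so the ranges overlapped.
Mn1 promoter, chr5:111417067-111417266: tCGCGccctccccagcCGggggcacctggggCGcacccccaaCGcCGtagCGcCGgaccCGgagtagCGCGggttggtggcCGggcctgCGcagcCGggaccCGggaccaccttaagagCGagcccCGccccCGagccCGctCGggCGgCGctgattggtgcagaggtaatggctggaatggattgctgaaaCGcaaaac
Nfib promoter, chr4:82506284-82506483: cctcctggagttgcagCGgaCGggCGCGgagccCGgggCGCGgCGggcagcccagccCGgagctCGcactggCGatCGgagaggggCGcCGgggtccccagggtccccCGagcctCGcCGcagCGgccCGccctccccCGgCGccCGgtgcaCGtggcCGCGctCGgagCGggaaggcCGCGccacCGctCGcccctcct
Nkx1-1 promoter, chr5:33432585-33432784: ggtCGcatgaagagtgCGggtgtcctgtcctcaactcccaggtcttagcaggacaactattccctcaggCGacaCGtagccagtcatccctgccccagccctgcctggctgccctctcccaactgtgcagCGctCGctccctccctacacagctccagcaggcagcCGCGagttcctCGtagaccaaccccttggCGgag
Prdm12 promoter, chr2:31639097-31639296: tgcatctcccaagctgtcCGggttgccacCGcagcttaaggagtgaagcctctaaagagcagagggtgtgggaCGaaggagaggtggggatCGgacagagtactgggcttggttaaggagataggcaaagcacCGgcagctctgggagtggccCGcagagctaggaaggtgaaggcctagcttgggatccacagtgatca
Lrp5 promoter, chr19:3687930-3688129: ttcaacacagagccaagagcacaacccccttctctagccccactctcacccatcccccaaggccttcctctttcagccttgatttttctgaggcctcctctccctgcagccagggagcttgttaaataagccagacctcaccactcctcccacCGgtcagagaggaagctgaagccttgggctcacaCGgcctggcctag
past Tra2b, chr16:22242018-22242217: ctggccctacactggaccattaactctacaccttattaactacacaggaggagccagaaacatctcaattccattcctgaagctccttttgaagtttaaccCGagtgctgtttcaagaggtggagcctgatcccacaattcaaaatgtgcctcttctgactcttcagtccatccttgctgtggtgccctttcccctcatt
past Pnrc1, chr4:33242664-33242863: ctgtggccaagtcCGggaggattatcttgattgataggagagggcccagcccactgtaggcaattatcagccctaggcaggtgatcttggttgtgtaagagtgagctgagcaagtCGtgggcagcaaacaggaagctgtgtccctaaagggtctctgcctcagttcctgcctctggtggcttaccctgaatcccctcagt
inside Tgfbr3, chr5:107252107-107252306: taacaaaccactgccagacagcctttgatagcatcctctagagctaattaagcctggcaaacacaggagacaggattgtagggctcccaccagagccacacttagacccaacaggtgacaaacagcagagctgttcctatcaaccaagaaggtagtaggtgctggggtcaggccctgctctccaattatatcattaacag
Gm27528, chr12:109529055-109529254: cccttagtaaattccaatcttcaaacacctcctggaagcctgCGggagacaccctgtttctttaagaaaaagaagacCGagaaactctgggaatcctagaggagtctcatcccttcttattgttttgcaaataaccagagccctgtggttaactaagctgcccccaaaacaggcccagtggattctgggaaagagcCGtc

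Most broad regions were promoters. A protein-coding transcription start site (TSS) lay inside 597 of 841, or 71.0% (Wilson 95% interval 67.8 to 74.0), against 49.5% of common regions of 1000 to under 2500 bp and 13.4% of those under 1000 bp. A TSS of any annotated gene lay in 639 (76.0%), and 202 broad regions had none. More than 1 protein-coding gene started in 36 (4.28%), and a pair of genes pointing away from each other in 28 (3.33%). A TSS of a long non-coding RNA gene was present in 156 broad regions (18.5%), against 8.18% of the regions of 1000 to under 2500 bp. Longer regions have more room for a TSS, so these shares are not independent of length.

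Base composition followed the promoters. Broad regions had a median GC content of 59.0% and a CpG observed over expected ratio of 0.61, above the 55.3% and 0.49 of the regions of 1000 to under 2500 bp and the 51.4% and 0.27 of the shorter ones. Broad regions with a TSS had 60.1% GC and a ratio of 0.66, close to the 60.1% and 0.67 of TSS regions of 2000 to under 2500 bp. In the 202 without a TSS the medians were 51.8% and 0.29, and 30 of the 202 had a ratio of at least 0.6.

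**Figure D1:**
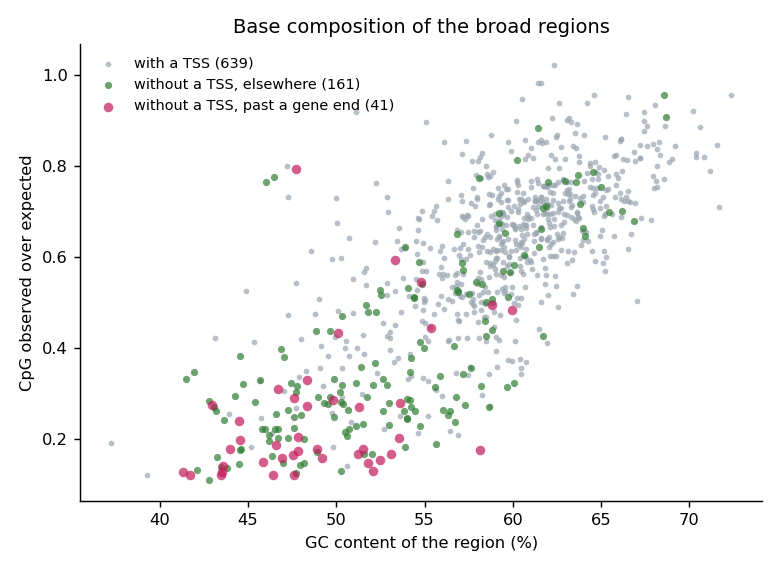
GC content in percent against the CpG observed over expected ratio for each of the 841 broad regions, in grey with a TSS, green without a TSS and pink without a TSS but centred within 5000 bp past the end of a protein-coding gene. The regions with a TSS spread around a median ratio of 0.66, and the 41 regions past gene ends lie mostly at the bottom left, with a median ratio of 0.18.

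Motifs were searched on both strands in the 200 bp around the strongest summit. The SP/KLF letters GGGCGG occurred in 49.5% of broad regions, 42.0% of those of 1000 to under 2500 bp and 19.9% of the shorter ones. Among regions with a TSS the share was 56.3% in broad regions and 58.9% in all common regions. The CTCF consensus was found in 1.78% of broad regions, 3.72% of the middle class and 12.0% of the shortest. Within regions without a TSS it was found in 4.46% of broad and 10.7% of all common regions. Those of 2000 to under 2500 bp without a TSS had 4.76%, close to the broad ones. The ETS letters CCGGAAGT were found in 0.95% of broad regions against 2.37% of all common regions, and the NRF1 letters GCGCATGCG in 0.24% against 0.90%. For the NFY letters CCAAT the shares were 23.5% and 24.8%. A window without the letters says nothing on binding, and a longer region leaves more sequence outside the window.

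The 561 broad regions with the TSS of exactly 1 protein-coding gene reached a median of 1013 bp upstream and 1843 bp downstream of its most upstream TSS. The downstream part was the longer in 401 of them (71.5%). That side was also the longer in 72.4% of the other 11480 common regions with 1 gene, and in 70.4% of the 1107 of 2000 to under 2500 bp, so the direction was shared with shorter promoters. Downstream medians were 1552 and 1569 bp in the WT libraries and 1527 and 1668 bp in the K20R libraries, and the genotypes overlapped. At 1000 bp downstream, a peak covered 70.9% and 69.7% of these regions in WT replicates 1 and 2 and 72.2% and 78.8% in K20R replicates 1 and 2. The strongest summit lay at a median of -14 bp from the TSS and within 500 bp of it in 57.0%.

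**Figure D2:**
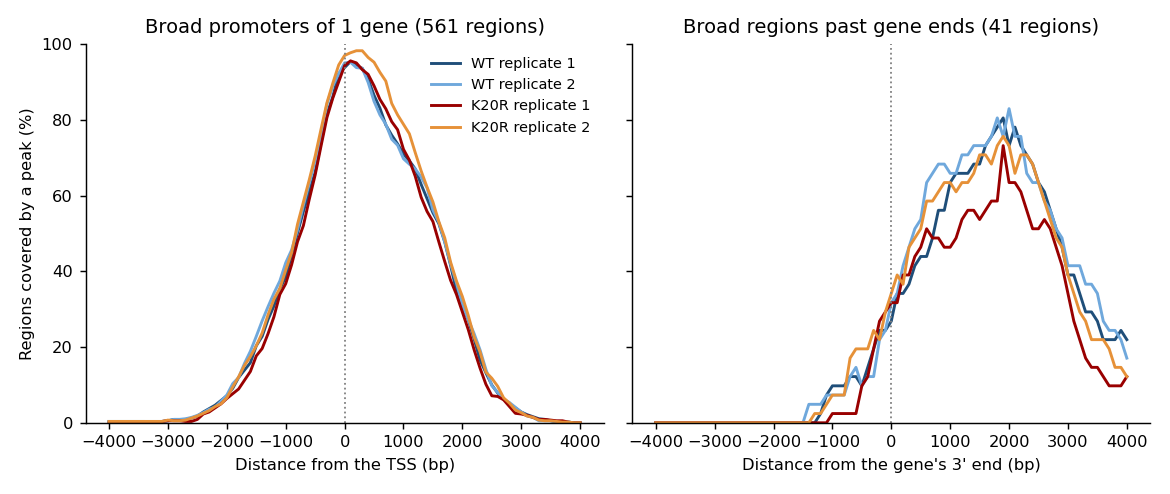
Percent of regions covered by a peak of each library against distance in bp, left from the TSS for the 561 broad promoters of 1 gene and right from the 3' end for the 41 broad regions past gene ends, both read in the direction of transcription. The left curves lean downstream in all 4 libraries, with K20R replicate 2 the highest at 1000 bp (78.8%), and on the right K20R replicate 1 is the lowest at 2000 bp (63.4%).

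The genes at broad promoters were 634 of 20696 autosomal protein-coding genes, or 3.06%, and 4.66% of the 13610 whose TSS lay in any common region. Early mesoderm and primitive streak genes were represented by 9 of 26: Wnt3, Wnt3a, Nodal and Dll1, which encode secreted or membrane-bound ligands, and the transcription factor genes Evx1, Lhx1, Foxc1, Cdx2 and Sp5. Neuroectoderm genes followed with 5 of 19 (among them Pax6, Olig2, Neurog2 and Sox21), pluripotency genes with 4 of 22 (Pou5f1, Sox2, Klf4 and Lin28a), cardiac genes with 3 of 24 (Gata6, Hcn4 and Wnt11) and endoderm genes with 2 of 18 (among them Cxcr4). Of the Wnt, Fgf, Bmp, Nodal and Notch signalling list, 10 of 47 had a broad promoter, among them the receptor genes Fzd2, Fzd8, Lrp5, Fgfr2 and Notch1 and the nuclear Wnt effectors Lef1, Tcf7 and Tcf7l1. The lists were short, and 1 gene moved the share of the smaller ones by several percentage points.

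By symbol, families of developmental transcription factors ran from none to many. Broad promoters were held by 10 of 41 Fox genes, 4 of 18 Sox genes and 3 of 16 Klf genes, and by 0 of 12 Tbx genes. More families were counted after the values were seen. Among their higher shares were 6 of 19 Wnt, 3 of 9 Pax, 3 of 8 Lhx and 3 of 10 Fzd genes. Ephrin and Eph receptor genes had 6 of 21 and Nfi genes 2 of 4. Lower shares were 4 of 20 Fgf, 2 of 11 Bmp, 2 of 14 Nkx, 2 of 14 Prdm and 2 of 15 Pou genes. Dusp genes had 2 of 22, Slc genes 8 of 358, Cyp genes 1 of 100 and Gpr genes 0 of 64. Counts of some further families are not given here. The Hox clusters, with many short neighbouring promoters, had 3 of 39 (Hoxb4, Hoxb9 and Hoxd9), and Irx, Dlx and Tfap2 genes had 0 of 6, 0 of 6 and 0 of 5. The Notch effector genes Hes and Hey had 0 of 9, and the Id genes, which encode helix-loop-helix inhibitors, 0 of 4. Zfp genes, which mostly encode zinc-finger proteins, had 4 of 385. Housekeeping families differed among themselves: 0 of 73 ribosomal protein genes, 0 of 38 proteasome subunit genes and 0 of 61 genes of the Nduf and Atp5 families had a broad promoter, although 70, 36 and 60 of them lay in a common region. Replication-dependent histone genes had 12 of 67, in 5 regions that each held 2 or 3 neighbouring genes. Lists outside development held 4 of 25 immediate early genes, 4 of 24 cell cycle genes, 4 of 33 chromatin regulators, 3 of 30 splicing genes, 3 of 19 reference genes and 1 of 14 fibroblast genes.

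**Figure D3:**
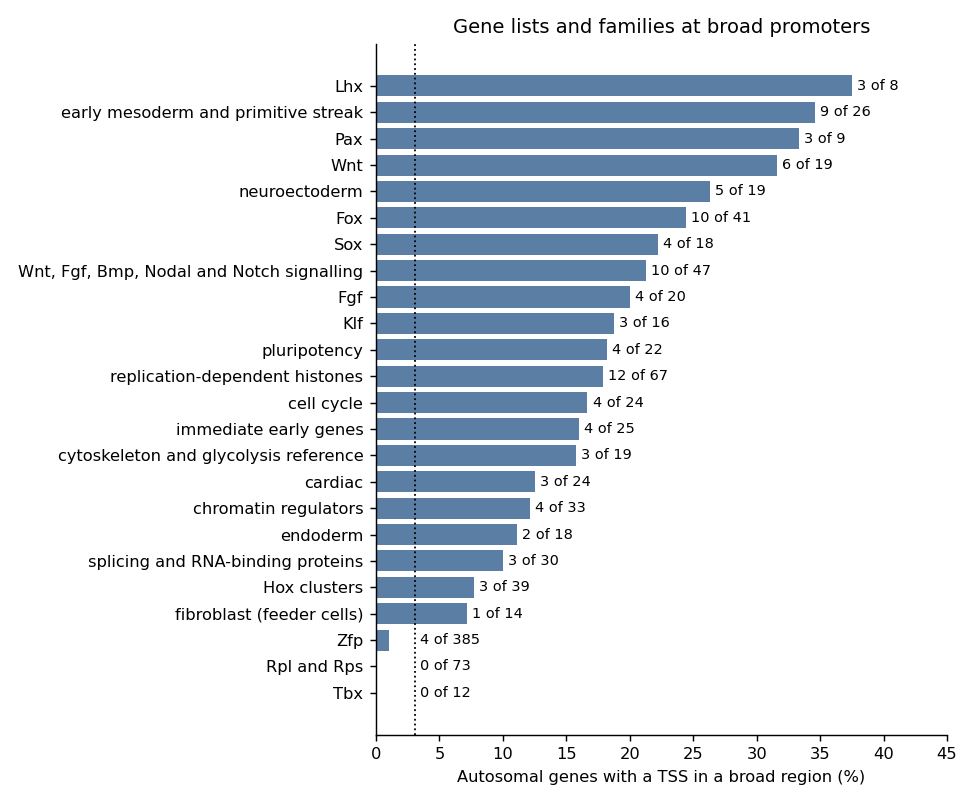
Percent of the autosomal protein-coding genes of each list or family with a TSS in a broad region, with the counts beside each bar and a dotted line at the 3.06% of all autosomal protein-coding genes. Early mesoderm genes stand at 9 of 26 and ribosomal protein genes at 0 of 73.

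The longest broad regions included the promoters of transcription factors and signalling genes. The first by merged length was the 5431 bp around Prdm12 (chr2:31635144-31640574), a PR-domain zinc-finger gene of sensory neuron development. Its covered length, the summed width of a library's peaks in the region, was 4945 and 4597 bp in WT replicates 1 and 2 and 2930 and 4173 bp in K20R replicates 1 and 2, so both K20R libraries lay below both WT libraries. Rcor2, a corepressor gene, came next with 5348 bp and covered lengths of 4134 and 4650 bp in WT versus 3992 and 4603 bp in K20R, which overlapped. At Mn1 (4663 bp) the K20R libraries lay above WT, with 4036 and 3461 bp against 2716 and 2275 bp. Sox9, the chondrocyte and neural crest regulator, had a region of 4361 bp, the ligand gene Ihh one of 4332 bp, Nfib 4297 bp, Nkx1-1 4262 bp and the adrenergic receptor gene Adra2a 4248 bp. Nkx1-1 and Adra2a were longer in both K20R libraries, and the genotypes overlapped at Sox9, Ihh and Nfib. Next in length after Mn1 was a region without a TSS, past the end of Tra2b (4645 bp).

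Broad regions were stronger than the shortest class but no stronger than the middle one. The rank of a region in a library is the percentile of its strongest peak's -log10 p among the 37692 common regions, with 100 the strongest. The median rank of broad regions was 63.9 and 60.5 in WT versus 62.8 and 61.4 in K20R, and that of the regions of 1000 to under 2500 bp was 64.1, 63.4, 63.8 and 63.9 in the same order. Regions under 1000 bp had medians of 32.02 to 32.94. The classes differed in their share of regions with a TSS. With a TSS, broad regions had medians of 66.9, 64.6, 65.8 and 64.8. Those of 2000 to under 2500 bp had 71.3, 69.2, 70.4 and 70.8. Without a TSS, the medians of broad regions were 49.8, 48.7, 49.35 and 46.9. They lay above the 34.3, 34.8, 33.9 and 34.1 of all common regions without a TSS. They were close to the 47.7, 46.5, 47.5 and 46.0 of those of 2000 to under 2500 bp, so the higher rank was shared with that class. Only 45, 37, 41 and 44 broad regions ranked above 90. The median summit fold enrichment of broad regions was 5.34, 6.05, 5.28 and 6.06, below the 5.84, 7.72, 5.70 and 7.56 of all common regions. Among broad promoters, Hnrnpl, E2f3, Tcf7l1 and Klf10 were among the strong, with ranks of at least 89.9 in every library, while Prdm12 ranked between 21.9 and 30.1. Summits of the same region also lay further apart between libraries. The median distance was 58 bp between the WT libraries, 61 bp between the K20R libraries and 76 to 90 bp between genotypes, against 37, 36 and 35 to 46 bp over all common regions.

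Few members were broad in every list alone. The median covered length per region was 2407 and 2486 bp in WT replicates 1 and 2 and 2341 and 2551 bp in K20R replicates 1 and 2, giving 2447 ± 55.9 bp for WT and 2446 ± 148 bp for K20R (mean ± SD of the library medians, n = 2 each). K20R replicate 2 stood apart. It held 680 of the 841 regions as a single peak (80.9%), against 532 and 523 in the WT libraries and 537 in K20R replicate 1. It was the library with the longest covered length in 313 regions and the shortest in 80, whereas K20R replicate 1 was the longest in 118 and the shortest in 347. A single peak of at least 2500 bp was present in all 4 libraries in 82 regions and in none of them in 207, where the length came from peaks joined across lists.

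**Figure D4:**
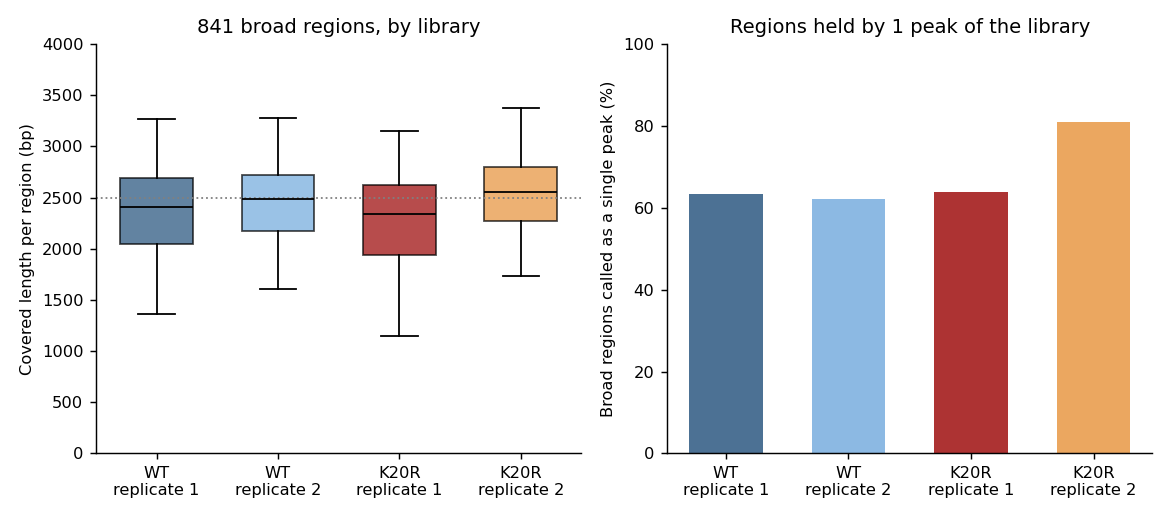
Left, covered length in bp of the 841 broad regions in each library (box, quartiles with the median line; whiskers, 5th to 95th percentile; dotted line, 2500 bp), and right, the percent of regions held by a single peak of that library. K20R replicate 2 has the longest median at 2551 bp and the highest share of single peaks at 80.9%, and K20R replicate 1 the shortest median at 2341 bp.

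Merging the lists of 1 genotype alone gave 488 of the 841 regions at 2500 bp or more with the WT lists and 529 with the K20R lists. Both genotypes alone reached it in 300, WT only in 188, K20R only in 229 and neither in 124. Leaving out 1 list kept 657 to 757 of the members at that length, the fewest without K20R replicate 2. The set of broad regions was thus partly decided by single libraries.

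Between the genotypes, the broad regions gave shares of shorter and longer regions close to those of all common regions. The merged length uses the same peaks as the covered length, so these values are descriptions and no test was made. Covered length was lower in both K20R libraries than in both WT libraries in 180 regions (21.4%) and higher in 196 (23.3%). The same calls were made in 19.4% and 24.0% of all common regions. Without K20R replicate 2, 48.0% of broad regions were shorter and 28.3% longer in K20R, and without K20R replicate 1 the shares were 26.7% and 44.0%, close to the 42.3% and 30.9%, and 27.6% and 44.8%, of all common regions under the same omissions. The median log2 difference in covered length, K20R over WT, was -0.0017 with quartiles of -0.15 and 0.15, and that of all common regions was 0.02.

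For rank, the share of higher calls was below the background. In 214 broad regions (25.4%) both K20R ranks lay below both WT ranks, and in 207 (24.6%) above, against 25.5% and 29.4% of all common regions. Without WT replicate 1 this turned, with 45.2% higher among broad regions and 41.5% among all common regions. Under the other 3 omissions the share was 31.4% to 38.9%, below the 40.7% to 41.2% of all common regions. Percentiles taken within the whole lists, which differ in size, gave 40.8% lower and 13.7% higher among broad regions and 34.8% and 18.8% among all common regions. The median rank difference was 0.31 percentile points, and 0.63 over all common regions. Length and strength did not move together in these calls: of the 196 longer regions, 49 had a lower rank in K20R and 46 a higher one, and of the 180 shorter regions 52 had a lower and 49 a higher rank. The median absolute difference in log2 covered length was 0.14 between the WT libraries, 0.15 between the K20R libraries and 0.17 to 0.19 between genotypes.

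Among early mesoderm promoters, 4 of 9 were longer in both K20R libraries and 0 shorter, next to the background of 24.0% and 19.4%. Lhx1, a LIM homeobox gene, had covered lengths of 2161 and 1540 bp in WT versus 2178 and 2667 bp in K20R. Foxc1, a forkhead gene of paraxial mesoderm, had 2095 and 1507 bp against 2422 and 2548 bp. Sp5, a Wnt target gene, had 1940 and 1806 bp against 2343 and 2189 bp, and the Notch ligand gene Dll1 had 2010 and 2043 bp against 2233 and 2406 bp. In each the genotypes did not overlap, by the smallest margin at Lhx1. By the widest peak in place of covered length, 3 were longer and 1, Evx1, shorter, and Lhx1 was no longer called. That measure gave 24.1% longer and 19.1% shorter over all common regions. Rank was lower in K20R at 3 of 9 and higher at 1, but ranked by fold enrichment 1 was lower and 3 higher, so the balance of ranks turned with the measure. The shares over all common regions were 25.5% and 29.4% by -log10 p and 22.0% and 23.7% by fold enrichment. By percentile within the whole lists 5 were lower and 1 higher, against 34.8% and 18.8% of all common regions. Evx1, a homeobox gene of the posterior streak, ranked 47.3 and 59.5 in WT versus 24.7 and 27.3 in K20R. Lhx1 ranked 67.2 and 58.8 against 50.9 and 43.5, and Cdx2, a posterior homeobox gene, 65.5 and 71.8 against 62.1 and 60.7. The Wnt ligand gene Wnt3a went the other way, with 15.6 and 17.5 against 30.5 and 31.3. Nodal, whose ligand patterns the streak, overlapped in both measures, with covered lengths of 3095 and 2842 bp against 3051 and 2721 bp.

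Gata6, a zinc-finger transcription factor gene of cardiac mesoderm and endoderm, was longer in K20R but lower in rank. Its covered length was 2329 and 2087 bp in WT versus 3048 and 3794 bp in K20R, a log2 difference of 0.63, and its ranks were 74.6 and 79.7 against 43.0 and 51.6. Hcn4, the pacemaker channel gene, differed in the same directions by less, with 2242 and 2499 bp against 2564 and 2581 bp and ranks of 82.4 and 85.3 against 78.7 and 68.3. At Wnt11 both measures overlapped. The ranks of Gata6 were also lower by fold enrichment, while its widest peaks overlapped between the genotypes. Of the 3 cardiac promoters, 2 were longer and 2 lower in rank, against 24.0% and 25.5% of all common regions. With lengths divided by the library median only Gata6 was longer (20.9% of all common regions). By fold enrichment only Gata6 ranked lower, and 1 of the others ranked higher (22.0% and 23.7%). By percentile within the whole lists 2 were lower (34.8%).

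Pluripotency and neural promoters, 2 lists joined here, ranked higher in K20R at 4 of 9 and lower at 0. The lists gave 2 of 4 and 2 of 5, and 0 of the 2 endoderm promoters were called in rank. Pou5f1 ranked 66.5 and 65.3 in WT versus 79.7 and 82.1 in K20R with overlapping covered lengths. Sox2 ranked 47.3 and 42.3 against 58.0 and 61.0 and was also longer, with 2598 and 2428 bp against 2854 and 3363 bp, but by fold enrichment its ranks overlapped and so did its widest peaks. Pax6, an eye and forebrain regulator, ranked 41.4 and 41.0 against 55.1 and 49.4. Klf4 and Sox21 overlapped in both measures, and Lin28a was shorter in both K20R libraries by a log2 difference of only -0.10. These counts were small, the background for a higher rank was 29.4%, and by fold enrichment 3 of the 9 ranked higher, with a background of 23.7%. By percentile within the whole lists, 2 of the 4 pluripotency promoters were higher and 1 lower, and 1 of the 5 neural promoters was higher. The shares over all common regions were then 18.8% higher and 34.8% lower.

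Of the 10 signalling genes, 3 were longer, 3 shorter, 4 lower in rank and 2 higher in rank in K20R. The counts lay near the background of 24.0% longer, 19.4% shorter, 25.5% lower and 29.4% higher. By percentile within the whole lists, 5 were lower and 0 higher, where that measure gave 34.8% and 18.8% of all common regions. Lef1, which encodes the partner of beta-catenin on DNA, was longer, with 2082 and 2010 bp in WT versus 2538 and 2996 bp in K20R. The Fgf receptor gene Fgfr2 and the Fgf target gene Dusp6 were longer and ranked lower. For Fgfr2 the ranks were 79.8 and 82.4 against 63.7 and 68.3. Bmp7, a Bmp ligand gene, was shorter, with 3464 and 2997 bp against 2017 and 2078 bp, and ranked higher, 79.8 and 72.8 against 81.5 and 82.2. Lrp5, a Wnt coreceptor gene, had one of the lowest rank differences of all members, with 80.5 and 77.0 in WT versus 33.2 and 27.3 in K20R, while its covered length overlapped. Of the 4 broad Zfp promoters, at Zfp37, Zfp580, Zfp651 and Zfp827, all 4 ranked higher in K20R, by a median of 8.94 percentile points, with a background of 29.4%. By fold enrichment 1 of the 4 did, with a background of 23.7%. Covered length was shorter in K20R at 2 of the 4 and the widest peak at 3, with backgrounds of 19.4% and 19.1%.

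The regions that differed most in length were mostly not promoters. The lowest log2 difference, -2.24, was at the end of the body of Eif4g2 (chr7:111067572-111071535), a translation initiation factor gene. Its covered length was 3776 and 3883 bp in WT versus 782 and 839 bp in K20R. A region 16242 bp from the nearest TSS, that of Crnn, had 2728 and 2909 bp against 366 and 983 bp. Inside Mapk6, a kinase gene, the values were 1913 and 2289 bp against 213 and 1135 bp, and inside Tgfbr3 2267 and 2513 bp against 665 and 799 bp. Fhdc1, a formin-related gene, gave 1850 and 2452 bp against 217 and 1737 bp, where K20R replicate 1 held the difference and the other K20R library lay just below WT. Without K20R replicate 1 the log2 difference moved from -2.09 to -0.88 at Mapk6 and from -1.80 to -0.29 at Fhdc1.

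At the other end was a region of 2584 bp at Gm27528 (chr12:109528852-109531435), in the imprinted Dlk1 to Meg3 locus and ending 9569 bp before the first TSS of Meg3, a maternally expressed non-coding RNA gene. Its covered length was 825 and 483 bp in WT versus 2104 and 2361 bp in K20R, a log2 difference of 1.82. Ranks of 15.2 and 21.3 in WT stood against 36.1 and 49.8 in K20R. Fibcd1 had 811 and 552 bp against 2096 and 2637 bp, and a region at Gm43805 inside Lhfp 992 and 499 bp against 1875 and 2365 bp. The region nearest to Dapl1 rested on 1 library, with 323 and 364 bp in WT, 381 bp in K20R replicate 1 and 2280 bp in K20R replicate 2. A region across the 3' end of the histone gene Hist2h3c1 had 553 and 1159 bp against 1926 and 2114 bp. It had the highest rank difference of all members, 14.4 and 15.9 against 60.8 and 63.4. Without WT replicate 1 its log2 difference in covered length moved from 1.33 to 0.80. Histone genes have near-identical copies, and whether this affected the placing of reads was not tested.

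Among other imprinted genes with a broad promoter, Mest, a paternally expressed gene, had covered lengths of 1360 and 1849 bp in WT versus 1874 and 2575 bp in K20R and ranks of 51.4 and 43.3 against 79.2 and 76.1. Peg10 was longer, with 2129 and 2172 bp against 2759 and 2737 bp, and overlapped in rank. Peg3, at ranks of 88.0 and 87.8 against 95.5 and 87.3, overlapped in both measures. Igf2 ranked 30.5 and 30.9 against 51.2 and 34.4 with overlapping covered lengths. The genes were picked for imprinting after the values were seen.

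**Figure D5:**
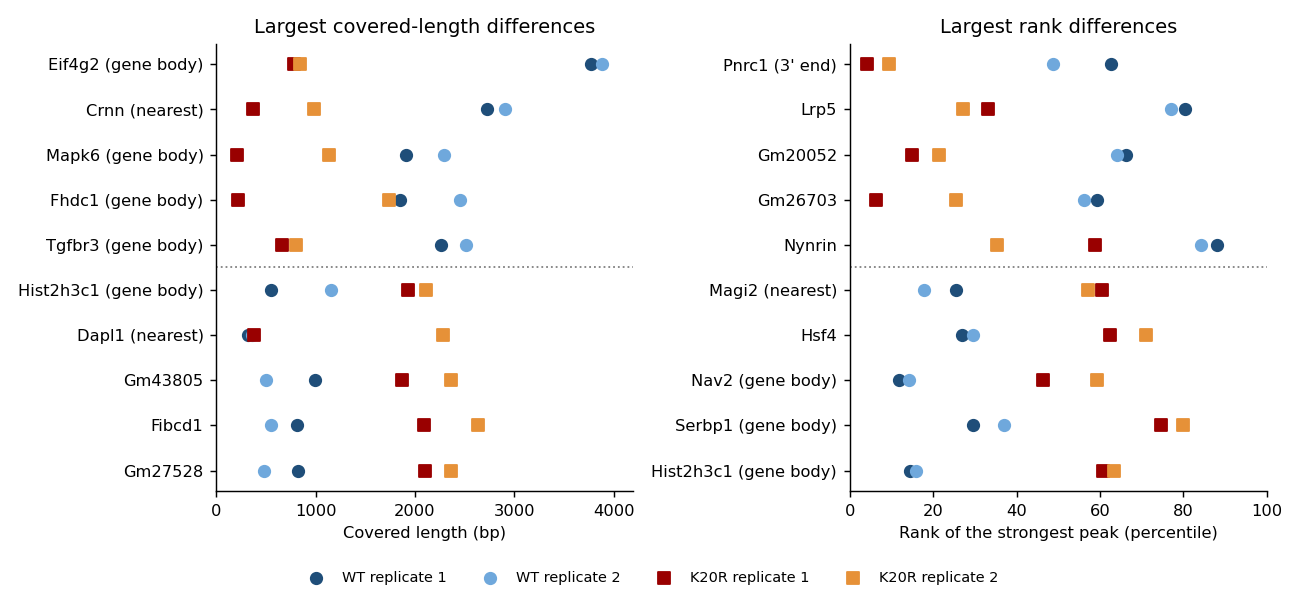
Covered length in bp (left) and rank in percentiles (right) of the 5 regions with the lowest and the 5 with the highest K20R minus WT difference among those whose genotypes did not overlap, with WT libraries as circles and K20R libraries as squares. Eif4g2 runs from 3776 and 3883 bp in WT to 782 and 839 bp in K20R, and at Dapl1 only K20R replicate 2 lies far from the rest.

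By rank, the lowest difference was past the end of Pnrc1, with 62.8 and 48.7 in WT versus 4.27 and 9.38 in K20R. The non-coding genes Gm20052 (66.3 and 64.0 against 14.9 and 21.4) and Gm26703, inside Sparcl1 (59.3 and 56.1 against 6.29 and 25.5), followed Lrp5, and Nynrin (88.1 and 84.3 against 58.8 and 35.2) came next. The highest after Hist2h3c1 were regions inside Serbp1, an RNA-binding protein gene (29.4 and 37.1 against 74.6 and 79.9), and Nav2, a neuron navigator gene (11.9 and 14.3 against 46.3 and 59.3). The promoter of the heat shock factor gene Hsf4 had 26.8 and 29.5 against 62.4 and 71.1, and a region far from Magi2 25.5 and 17.8 against 60.5 and 57.1. With ranks by fold enrichment the difference went from -39.2 to -8.75 at Nynrin, from 38.6 to 13.2 at Hsf4, from -48.9 to -25.1 at Pnrc1, from 39.7 to 22.6 at Nav2 and from 37.1 to 21.7 at Magi2. At the other regions of this paragraph, and at Lrp5 and Hist2h3c1, it moved by less than 1.5 times.

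Of the 202 broad regions without a TSS, 49 were shorter in both K20R libraries (24.3%) and 44 longer (21.8%), and their ranks were lower in 68 (33.7%) and higher in 53 (26.2%). Over all common regions without a TSS the shares were 22.0%, 22.3%, 28.7% and 29.8%. Gene ends were close to many of the 202, on either side. The centre was within 5000 bp past the 3' end of a protein-coding gene in 41 (20.3%, Wilson 95% interval 15.3 to 26.4), against 11.7% of TSS-free regions of 2000 to under 2500 bp, 9.61% of those of 1500 to under 2000 bp and 8.59% of all. A further 37 (18.3%) were centred within the same distance before a gene end, against 12.8% of those of 2000 to under 2500 bp and 8.64% of all. This class was noticed after the values were seen.

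The 41 regions lay at a median of 1555 bp past the gene end and were poor in CpG, with a median ratio of 0.18 and a GC content of 48.3%. All 1991 common regions past gene ends had 0.25 and 51.6%, and all common regions without a TSS 0.26 and 50.7%. A low CpG ratio was thus largely shared with those regions. Their genes included those of 6 ribosomal proteins (Rps9, Rps19, Rps24, Rps26, Rpsa and Rpl32), the splicing factors Tra2b, Srsf3 and the kinase Clk1, the helicase Ddx17, the actin Actg1 and its partner Cfl1, the initiation factor Eif5, the ribosome-bound Rack1, the chaperonin subunit Tcp1 and the methionine cycle enzyme Mat2a. These were picked from the 41 after the values were seen. The regions of Pou3f2, Foxa2 and Meis1, which encode developmental transcription factors, were also among them. Of the ribosomal protein genes, 0 of 73 had a broad promoter, whereas 6 had a broad region past the end, or 14.6% of the 41, and ribosomal protein genes stood beside 27 (1.36%) of all 1991 common regions past gene ends. The region of 4234 bp at Rps15a, the third longest without a TSS, was centred 116 bp before the gene's end and therefore counted apart.

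Past gene ends, covered length was lower in both K20R libraries in 14 of 41 regions, higher in 7 and overlapping in 20, against 25.4% and 19.1% of all 1991 common regions past gene ends. This balance moved with K20R replicate 1: without it 16 were shorter and 15 longer (30.9% and 41.9% of all past gene ends), while without K20R replicate 2 the counts were 26 and 7 (49.0% and 26.0%). At Tra2b the values were 3888 and 4292 bp in WT versus 1411 and 2120 bp in K20R. Cfl1 had 2109 and 2506 bp against 1057 and 973 bp, and Tcp1 2016 and 1884 bp against 409 and 896 bp. Ddx17 had 2981 and 3172 bp against 848 and 2438 bp, and Clk1 3396 and 3848 bp against 1037 and 2861 bp, with K20R replicate 1 far lower than the other. Longer in K20R were Rps9, with 2425 and 2572 bp against 3318 and 3445 bp, Rps19, Rpl32, Eif5, Mat2a, Mto1 and Meis1. Of the 6 ribosomal protein genes, Rps9, Rps19 and Rpl32 were thus longer in K20R and none was shorter. The genotypes overlapped at Rps24, Rps26 and Rpsa.

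Rank past gene ends was lower in K20R in 18 of 41 and higher in 6, where all common regions past gene ends gave 27.1% and 27.4%. Rpl32 ranked 88.6 and 92.5 in WT versus 48.1 and 58.9 in K20R although its covered length was longer. Actg1 ranked 69.0 and 64.3 against 61.0 and 41.4, and Foxa2 66.6 and 63.5 against 42.0 and 29.2. Meis1 went the other way, 33.2 and 29.7 against 60.2 and 51.5. With ranks by fold enrichment in place of -log10 p, 9 regions were lower and 6 higher (23.05% and 25.01% of all past gene ends). With percentiles within the whole lists 29 were lower and 4 higher (36.5% and 17.4%). Lower ranks thus exceeded the share of all past gene ends by -log10 p and by list percentile. By fold enrichment they did not, at 21.95% of the 41. Leaving out 1 library at a time gave 19 to 28 lower and 6 to 10 higher, or 46.3% to 68.3% and 14.6% to 24.4%. All common regions past gene ends gave 37.0% to 39.2% and 37.9% to 39.8% under the same omissions.

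Chromosomes 8 and 14 stood apart in rank over all their common regions, and they held 41 and 34 broad regions. On chromosome 8, 17 broad regions ranked higher and 8 lower in K20R, where 49.4% and 17.3% of all its common regions did. On chromosome 14 the counts were 6 higher and 14 lower, with 20.3% and 40.7% of all regions. Hsf4 lies on chromosome 8 and Nynrin on chromosome 14, and the part of their chromosome in their ranks was not tested.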

How the data were processed

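ATAC-seq was performed on day 4 embryoid bodies, 2 libraries per genotype. The labels number them as replicates, and the study's methods call them biological replicates. According to the study's methods, the authors trimmed reads with Trim Galore, aligned them with Bowtie2 to mm10, kept reads with a mapping quality of at least 30, removed duplicates and blacklisted regions, and called peaks with MACS2 for each library separately. The deposited lists give, for each peak, its start and end, a score, the fold enrichment of the summit, and −log10 p and −log10 q values as MACS2 wrote them. Broad peak calling was not used, so a long peak is a run of signal above the threshold and its width moves with the depth and background of its library.

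Peaks were merged and summarised with Python 3.11.15, pandas 2.3.3 and numpy 2.4.6. Widths were end minus start. Ranks used the largest −log10 p per region and library, which grows with depth, so percentiles within the common regions were compared rather than values. The lists hold no counts, so the study's count-based comparison could not be run. A region was called lower or higher when both K20R values lay below or above both WT values, without a test. A list of non-coding RNA hosts was not used, since lists were matched to protein-coding genes. Gene positions came from GENCODE vM21 basic and sequence from GRCm38.p6, the assembly of mm10. In 7 members a peak number was missing between peaks of 1 library, and peaks absent from a list were not analysed here. The merging and calling were tested on simulated lists with known regions. The members, gene lists and alternatives were chosen with earlier results of these data known. Named regions were the 10 longest, the 5 lowest and 5 highest in covered length and in rank among those that did not overlap, the 3 longest without a TSS and genes of the lists. Some regions that this rule names are not reported here. The Wnt, Pax, Lhx, Fgf, Fzd, Nfi, ephrin, Irx, Dlx, Tfap2, Hes, Hey, Id, proteasome, Nduf and Atp5 families, the imprinted genes and the gene-end class were added after the values were seen, as were some examples past gene ends. The Nkx, Pou, Prdm, Bmp, Dusp, Slc, Cyp and Gpr families were also added then. So were further families, among them Gata, Zic, Gli, Olfr and Krt, whose counts are not reported here.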

Additional observations from a re-analysis of the deposited data

How the results depend on the processing

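The lists hold no read depth, and no test of a single region was made. How many regions count as broad depended most on the minimum length, 2753 at 2000 bp and 254 at 3000 bp. The share with a protein-coding TSS moved to 66.2% and 75.6% under these minimums and to 78.4% when only peaks with −log10 q of at least 10 were kept. The share shorter in K20R was 15.7% at 3000 bp, with 19.4% of all common regions. By the widest peak it was 18.7%, close to the 19.1% of all common regions. At −log10 q of at least 10 it was 18.7%. Lengths divided by the library median over common regions turned the balance, with 25.2% shorter and 18.9% longer (21.7% and 20.9% of all common regions). The share higher in rank was 20.8% at −log10 q of at least 10. The shares of all common regions under that filter were not computed. Percentiles within the whole lists, which differ in size, gave 40.8% lower and 13.7% higher with a median difference of -2.59 (34.8% and 18.8% of all common regions), and ranks by fold enrichment 12.5% and 17.95% (22.0% and 23.7%). With 1 library left out, a genotype is judged on a lone library and more regions fail to overlap by construction: 26.7% to 48.0% were shorter, 28.3% to 44.0% longer, 30.4% to 45.8% lower and 31.4% to 45.2% higher in rank, and the median rank difference ran from -1.58 to 1.17. Merging peaks up to 100 bp apart, keeping −log10 q of at least 2 and leaving out chromosomes 2, 8 and 14 moved none of these values beyond their interval or spread. Among the longest regions and those with the largest differences, no difference that was called changed sign by widest peak, scaled length, list percentile or fold enrichment or with 1 library left out. The labels number the replicates but do not say that a number marks a shared day, and the deviations of same-numbered libraries correlated at 0.04 for covered length and 0.04 for rank over all common regions, and at 0.24 and 0.06 over the broad regions. A replicate block, calling a region when both same-numbered differences had 1 sign, gave 30.9% shorter, 30.8% longer, 32.1% lower and 31.4% higher in rank, where the same rule gave 26.7%, 33.5%, 31.3% and 36.3% of all common regions. The alternatives for the regions past gene ends were chosen after seeing the data. Windows of 3000 and 10000 bp put 17.8% and 23.8% of the TSS-free broad regions past a gene end, against 5.67% and 13.98% of all TSS-free common regions.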

Other observations

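Another 14 autosomal merged regions of at least 2500 bp lacked a peak in at least 1 list and were not members. Of these, 11 held peaks of 3 lists and 3 held peaks of 2, and the longest measured 4137 bp. On the sex chromosomes 24 regions of that length held a peak of every list.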
